A study of Mus musculus with 12 samples.

Results

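The cytochromes P450 of families 1 to 4 were followed in the liver of mice lacking Abcb11 and in the lungs of late fetal and newborn mice. A gene was a member if its probe set on the array was assigned to that gene alone and its symbol began with Cyp1, Cyp2, Cyp3 or Cyp4 followed by a subfamily letter and a number. This rule gave 51 genes on 59 probe sets, of 17097 genes and 45037 probe sets in all, in 18 subfamilies. Family 1 had 3 members, family 2 had 29, family 3 had 6 and family 4 had 13. Where a gene had several probe sets, that with the highest mean over the 6 arrays of a tissue stood for it. Mouse P450 genes of these families lie in clusters of near copies, and 30 protein-coding genes that the same pattern finds in RefSeq (assembly GRCm38.p6), among them Cyp2a4, Cyp2c54, Cyp4a12b and Cyp4a14, were not analysed here.

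Enzymes of families 1 to 3 mostly oxidise drugs, toxins, steroids and bile acids, and those of family 4 mostly oxidise the ends of fatty acids and eicosanoids. The hepatocyte makes most of them, many more strongly around the central vein than around the portal tract, and several are made unequally in male and female mice. Their genes answer to receptors that sense foreign and endogenous compounds: the aryl hydrocarbon receptor (AHR) for family 1, the constitutive androstane receptor (CAR) and the pregnane X receptor (PXR) for Cyp2b, Cyp2c and Cyp3a, and the peroxisome proliferator-activated receptor alpha (PPAR alpha) for Cyp4a.

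Total RNA was measured on 12 one-colour Affymetrix arrays, and values are on a log2 scale. The 6 liver arrays came from female C57BL/6 mice aged 1.5 months, 3 WT and 3 Abcb11-/-, which lack the bile salt export pump throughout the body. The 6 lung arrays came from C57BL/6 offspring at embryonic day 17.5 (E17.5), E18.5 and the neonatal stage N0, 1 array for each stage and each mother. One set of offspring had a WT mother and an Abcb11-/- father, the other an Abcb11-/- mother and a WT father, so that every offspring was Abcb11+/- and the mothers differed. No group received a treatment. The labels do not say whether WT and Abcb11-/- females were littermates, nor how many animals stood behind a lung array. Liver p-values measure only the spread between these samples. No stage and mother had a second lung array, so lung p-values measure what is left after stage and mother, and not a spread within a group. Array medians lay between 3.15 and 3.18 in the liver and between 3.63 and 3.68 in the lung, so levels were not compared across tissues. Abcb11 itself, whose product pumps bile acids out of the hepatocyte, averaged 11.05 ± 0.17 in WT liver and 3.1 ± 0.18 in Abcb11-/- liver (SD, n = 3 each). Markers of each tissue were present: the mean of 13 hepatocyte genes lay between 12.41 and 12.43 on the WT and between 12.46 and 12.59 on the Abcb11-/- liver arrays, and type II cell genes averaged 9.70 to 10.75 on the lung arrays. One lung array, that from the Abcb11-/- mother at E17.5, stood apart. Its hepatocyte genes averaged 9.59 against 5.20 on the array of the WT mother at that stage, and its skeletal muscle genes 8.66 against 4.05. Several fitted results that rest on it are given with and without it. From E17.5 to E18.5 only differences are given without it, because 1 array then remains at E17.5. The mothers cannot be compared at E17.5 without it.

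In the liver, more P450 genes were lower than higher in Abcb11-/- mice, and the largest falls were in Cyp2b and Cyp2d. Of the 51 members, 12 fell and 3 rose (limma, Benjamini-Hochberg adjusted p under 0.05 over all 17097 genes). Over all genes, 2.91% fell and 4.33% rose, 7.24% together. The groups did not overlap in 18 members that were lower and 4 that were higher, against 12.1% and 13.8% of all genes. The 3 that rose were Cyp4a12a, Cyp2c55 and Cyp2j6. Cyp2d13, Cyp2b13, Cyp2d9, Cyp1a2, Cyp2b10, Cyp2c37, Cyp2j9, Cyp2d22, Cyp2d10, Cyp4f15, Cyp4f13 and Cyp2e1 fell, in order of the size of the fall. The median difference, Abcb11-/- minus WT, was -0.18 over the members and 0.00 over all genes. No filter on low values entered the fit. A mean log2 value of at least 6 was reached by 34 members, whose median difference was -0.33, against 0.01 over the 6375 genes that reached it. A fit to those genes alone called 13 of the 34 lower and 3 higher, against 8.67% and 9.43% of the 6375. A further 10 members stayed below 4 on every liver array.

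**Figure D1:**
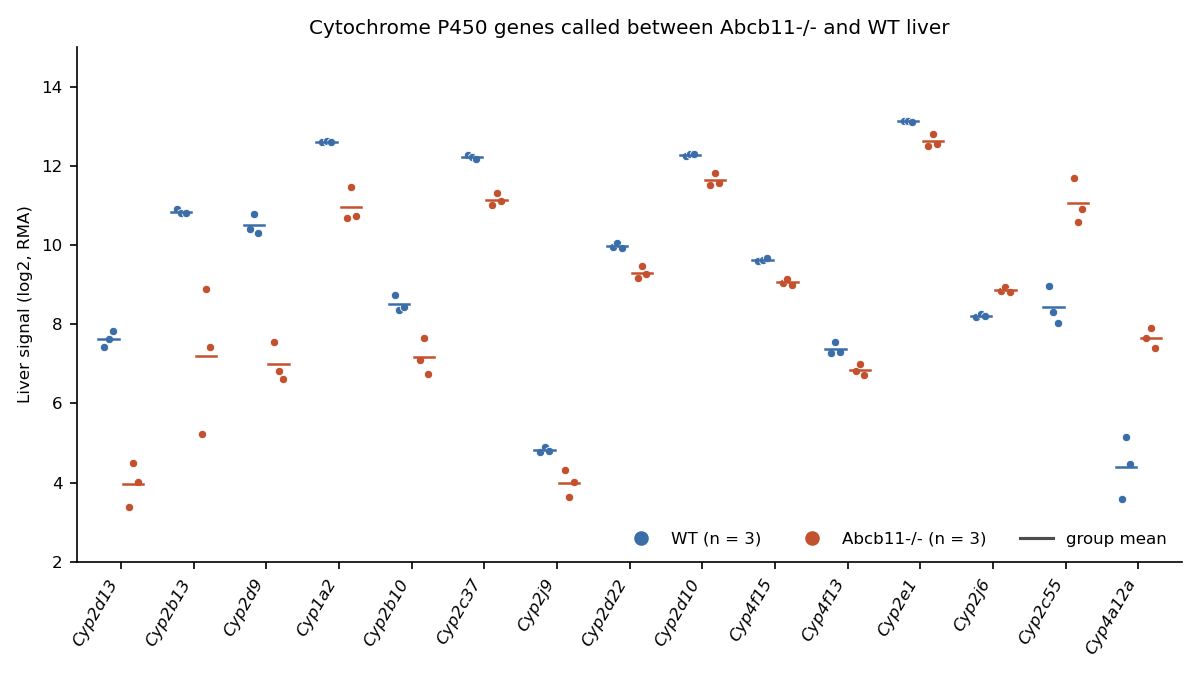
Log2 signal of the 15 P450 genes that passed the limma test in liver, ordered from the largest fall to the largest rise, with a point for each array (blue, WT, n = 3; red, Abcb11-/-, n = 3) and a line at each group mean. The groups do not overlap in any of the 15 genes, and the Abcb11-/- points of Cyp2b13 spread from 5.23 to 8.90.

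The Cyp2b enzymes hydroxylate steroids and many drugs. Cyp2b9 and Cyp2b13 are made mainly in female liver, whereas Cyp2b10 is the classical target of CAR. Cyp2b13 was at 10.92, 10.80 and 10.80 in the WT mice and at 5.23, 8.90 and 7.43 in the Abcb11-/- mice. The WT values lay within 0.12 of each other and the Abcb11-/- values were all lower but scattered widely. Cyp2b13 fell 12.6-fold (log2 difference -3.65, SE 0.78, adjusted p = 0.033). The size of the fall depended on single animals: it was 6.39-fold without Abcb11-/- replicate 1 (log2 difference -2.68, adjusted p = 0.00663) and 22.8-fold without Abcb11-/- replicate 2 (-4.51, adjusted p = 0.00567). Leaving out any WT array or Abcb11-/- replicate 3 raised the adjusted p to between 0.087 and 0.117, with log2 differences of -3.61 to -3.78, and a trended and robust prior raised it to 0.132. Cyp2b9 was at 11.39, 11.22 and 11.24 in WT and at 8.97, 10.65 and 9.74 in Abcb11-/- mice, with the 3 Abcb11-/- mice in the same order as for Cyp2b13. Its log2 difference of -1.50 (SE 0.36) had an adjusted p of 0.0514, which was 0.0371 without Abcb11-/- replicate 1 and 0.00416 without Abcb11-/- replicate 2, but 0.139 to 0.153 with any of the other 4 arrays left out. Cyp2b10 was at 8.74, 8.37 and 8.43 in WT and at 7.09, 7.65 and 6.75 in Abcb11-/- mice, again with no overlap. It fell 2.55-fold (log2 difference -1.35, SE 0.22, adjusted p = 0.0129), with an adjusted p of 0.0578 without WT replicate 1 and 0.0529 without WT replicate 3. Its other 2 probe sets differed by -1.45 and -1.60. Cyp2b19, the remaining member, was at 2.49 or lower on every liver array.

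Cyp2b9 and Cyp2b13 are near copies, which limits how far their probe sets can be read as separate genes, and their cross-hybridisation was not tested. The 250 bases before each start in RefSeq (GRCm38.p6) are shown because these 2 genes share almost the same upstream sequence while the third, Cyp2b10, differs from both. They lie at chr7:26173159-26173408 for Cyp2b9, chr7:26061245-26061494 for Cyp2b13 and chr7:25897408-25897657 for Cyp2b10, all on the + strand. Capitals mark the bases at which Cyp2b9 and Cyp2b13 differ from each other and, in Cyp2b10, the bases that differ from Cyp2b9.
Cyp2b9: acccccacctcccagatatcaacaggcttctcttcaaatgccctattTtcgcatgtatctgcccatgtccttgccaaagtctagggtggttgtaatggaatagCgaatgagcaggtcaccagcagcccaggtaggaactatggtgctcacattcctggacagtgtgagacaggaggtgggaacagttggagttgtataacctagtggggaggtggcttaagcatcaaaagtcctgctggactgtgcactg
Cyp2b13: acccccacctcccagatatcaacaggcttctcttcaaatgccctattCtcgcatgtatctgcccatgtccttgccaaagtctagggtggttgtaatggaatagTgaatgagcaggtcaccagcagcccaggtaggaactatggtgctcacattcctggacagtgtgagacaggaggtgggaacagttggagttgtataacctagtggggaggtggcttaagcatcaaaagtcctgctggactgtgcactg
Cyp2b10: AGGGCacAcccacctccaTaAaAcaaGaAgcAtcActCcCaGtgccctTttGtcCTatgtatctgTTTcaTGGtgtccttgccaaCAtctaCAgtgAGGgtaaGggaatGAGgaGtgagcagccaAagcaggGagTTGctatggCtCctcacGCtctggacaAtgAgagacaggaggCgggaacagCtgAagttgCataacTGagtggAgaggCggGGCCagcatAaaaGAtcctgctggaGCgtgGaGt
Of 250 positions 248 were identical between Cyp2b9 and Cyp2b13 (99.2%). The changes from Cyp2b9 to Cyp2b13, counted from 1 at the 5′ end, were T48C and C104T. Identity of Cyp2b10 with either was 70.0%. Both female-predominant genes hold the nuclear receptor motif AGGTCA at positions 113 to 118, and the Cyp2b10 window holds none.

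Of the 6 measured Cyp2d genes, 4 fell. Cyp2d9, a testosterone hydroxylase made mainly in male liver, was at 10.41, 10.79 and 10.30 in WT and at 7.56, 6.83 and 6.61 in Abcb11-/- mice. Cyp2d13, which RefSeq lists as a transcribed pseudogene, was at 7.43, 7.62 and 7.82 in WT and at 3.38, 4.49 and 4.01 in Abcb11-/- mice. The groups were 2.74 apart at their closest in Cyp2d9 and 2.94 in Cyp2d13. Cyp2d9 fell 11.3-fold (log2 difference -3.50, SE 0.25, adjusted p = 0.0007) and Cyp2d13 12.7-fold (-3.66, SE 0.26, adjusted p = 0.0007). The Abcb11-/- mean of Cyp2d13, 3.96, was at the dim end of the arrays, where a fold is less certain. Its fall and that of Cyp2b13 were of almost equal size, and their order changed with the array left out. The fall of Cyp2b13 was the larger without Abcb11-/- replicate 2 (-4.51, against -3.93), Abcb11-/- replicate 3, WT replicate 2 or WT replicate 3. That of Cyp2d13 was the larger without Abcb11-/- replicate 1 (-3.37, against -2.68) or WT replicate 1. The falls of Cyp2d10 and Cyp2d22, the latter often taken as the mouse counterpart of human CYP2D6, were smaller. Cyp2d10 was at 12.25, 12.29 and 12.31 in WT and at 11.52, 11.81 and 11.56 in Abcb11-/- mice, a fall of 1.57-fold (log2 difference -0.65, SE 0.10). Cyp2d22 was at 9.96, 10.06 and 9.92 in WT and at 9.17, 9.47 and 9.27 in Abcb11-/- mice, a fall of 1.60-fold (log2 difference -0.68, SE 0.10). Adjusted p was 0.0106 and 0.0101, and it was 0.0539 and 0.0545 without WT replicate 2. Cyp2d26 did not pass the test. It was at 12.71, 12.66 and 12.64 in WT and at 12.77, 12.81 and 12.70 in Abcb11-/- mice (log2 difference 0.09, 95% confidence interval -0.10 to 0.28). Cyp2d34 stayed at 2.85 or lower.

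Upstream sequence was also close between Cyp2d9 and Cyp2d10, which fell by very unequal amounts, and is shown for that reason. Whether their probe sets cross-hybridise was not tested, which limits how far they can be read as separate genes. The 250 bases before each start lie at chr15:82452127-82452376 on the + strand for Cyp2d9 and at chr15:82407195-82407444 on the - strand for Cyp2d10 (RefSeq, GRCm38.p6). Capitals mark bases that differ between them in the alignment or are found in only 1 of the 2.
Cyp2d9: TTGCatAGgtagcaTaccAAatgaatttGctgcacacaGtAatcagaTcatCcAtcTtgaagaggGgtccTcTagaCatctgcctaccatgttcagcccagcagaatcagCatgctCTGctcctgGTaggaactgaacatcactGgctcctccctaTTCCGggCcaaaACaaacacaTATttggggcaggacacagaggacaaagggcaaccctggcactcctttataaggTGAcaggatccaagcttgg
Cyp2d10: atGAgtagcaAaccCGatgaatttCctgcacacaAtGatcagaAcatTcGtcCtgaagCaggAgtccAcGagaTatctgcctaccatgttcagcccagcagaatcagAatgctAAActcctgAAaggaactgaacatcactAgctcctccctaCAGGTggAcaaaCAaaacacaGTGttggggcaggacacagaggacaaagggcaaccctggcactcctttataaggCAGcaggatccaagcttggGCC
Identity was 82.3%, with 209 identical positions in an alignment of 254. Both windows hold TATAAA, the sequence of the TATA box, on the strand opposite to the one printed. No upstream sequence was matched for Cyp2d13.

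The Cyp2c subfamily, with 8 measured genes, held both a large rise and a fall. Cyp2c55, a fatty acid hydroxylase that is induced through PXR and CAR, was at 8.97, 8.31 and 8.04 in WT and at 11.69, 10.58 and 10.90 in Abcb11-/- mice. The lowest Abcb11-/- value was 1.61 above the highest WT value. Cyp2c55 rose 6.13-fold (log2 difference 2.62, SE 0.32, adjusted p = 0.00447). Cyp2c37, which is induced through CAR, was at 12.27, 12.21 and 12.17 in WT and at 11.02, 11.32 and 11.10 in Abcb11-/- mice. It fell 2.10-fold (log2 difference -1.07, SE 0.10, adjusted p = 0.00195). Values of Cyp2c29 and Cyp2c50, which answer to the same receptor, did not overlap between the groups either but did not pass the test, with log2 differences of -0.36 (adjusted p = 0.0565) and -0.45 (adjusted p = 0.0809). Without Abcb11-/- replicate 2, Cyp2c50 passed (-0.58, adjusted p = 0.0118), and with any other array left out its adjusted p was 0.163 to 0.222. Cyp2c70, the mouse enzyme that makes muricholic acids, was at 12.40, 12.37 and 12.46 in WT and at 12.53, 12.82 and 12.45 in Abcb11-/- mice (log2 difference 0.19, 95% confidence interval -0.07 to 0.45). Cyp2c23 differed by 0.07. Cyp2c38 was at 6.70 in Abcb11-/- replicate 1 and at 8.06 to 8.76 on the other 5 arrays.

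In the Cyp1 family, Cyp1a2 carried the change. This enzyme oxidises aromatic amines and caffeine and is made around the central vein. Its values were 12.59, 12.63 and 12.61 in WT and 10.67, 11.47 and 10.74 in Abcb11-/- mice, so the groups were at least 1.12 apart. Cyp1a2 fell 3.14-fold (log2 difference -1.65, SE 0.20, adjusted p = 0.00435). Cyp1a1, which is induced by ligands of AHR, was dim, at 3.33 to 4.02 in WT and 2.85 to 3.45 in Abcb11-/- mice (-0.63, adjusted p = 0.145, 0.0418 without Abcb11-/- replicate 1 and 0.12 to 0.372 with any other array left out). Cyp1b1, an extrahepatic enzyme, was at 3.37 or lower on every liver array. Cyp2e1, which oxidises ethanol and acetaminophen and is likewise pericentral, was at 13.13, 13.14 and 13.10 in WT and at 12.51, 12.80 and 12.55 in Abcb11-/- mice. It fell 1.42-fold (log2 difference -0.50, SE 0.10, adjusted p = 0.0263). With any array other than Abcb11-/- replicate 2 left out, the adjusted p of Cyp2e1 was between 0.0539 and 0.107 at log2 differences of -0.45 to -0.52.

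The Cyp3a subfamily, whose main hepatic member Cyp3a11 is the textbook target of PXR, had no called member among 6. Cyp3a11 was at 13.18, 13.07 and 12.92 in WT and at 13.34, 13.20 and 13.28 in Abcb11-/- mice. The groups did not overlap, and the difference of 0.22 (SE 0.10, 95% confidence interval -0.01 to 0.45) had an adjusted p of 0.26. Cyp3a25 and Cyp3a13 differed by 0.14 and 0.12. Cyp3a41a, a female-predominant form, was at 11.55, 11.17 and 11.21 in WT and at 9.2, 11.30 and 10.22 in Abcb11-/- mice. Replicate 2 of the Abcb11-/- group lay within the WT range and the other 2 lay below it. The difference of -1.07 (SE 0.46) had an adjusted p of 0.228. It was -1.60 without that array, with an adjusted p of 0.0202, and -0.55 without Abcb11-/- replicate 1, with an adjusted p of 0.353. With any of the other 4 left out the adjusted p was 0.373 to 0.434. The upstream windows of Cyp3a41a and Cyp3a44 were 94.4% identical. Whether their probe sets cross-hybridise was not tested, and likeness of upstream sequence cannot decide it. Cyp3a44 differed by -0.44 (adjusted p = 0.273).

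Family 4 held the largest rise. Cyp4a12a, a male-predominant enzyme that hydroxylates arachidonic acid, was at 3.58, 5.14 and 4.48 in the WT females and at 7.66, 7.91 and 7.41 in the Abcb11-/- females. The groups were 2.27 apart at their closest. Cyp4a12a rose 9.58-fold on this scale (log2 difference 3.26, SE 0.35, adjusted p = 0.00282). Its WT mean, 4.40, was at the dim end of the arrays, where a fold is less certain. Cyp4a12b was not analysed here, and whether the Cyp4a12a probe set also detects it was not tested. The PPAR alpha targets of the same subfamily did not pass the test: Cyp4a10 was at 12.05, 11.91 and 11.84 in WT and at 11.70, 11.79 and 11.72 in Abcb11-/- mice (-0.20, adjusted p = 0.268), and Cyp4a31 was at 3.7 or lower. Of 7 Cyp4f genes, whose group includes enzymes that hydroxylate leukotrienes and vitamin E, 2 fell. Cyp4f15 was at 9.60, 9.62 and 9.66 in WT and at 9.04, 9.15 and 9.0 in Abcb11-/- mice, a fall of 1.48-fold (log2 difference -0.56, SE 0.08, adjusted p = 0.0089). Cyp4f13 was at 7.28, 7.54 and 7.30 in WT and at 6.81, 6.99 and 6.72 in Abcb11-/- mice, a fall of 1.45-fold (-0.53, SE 0.11, adjusted p = 0.0325). With any array other than Abcb11-/- replicate 2 left out, the adjusted p of Cyp4f13 was between 0.0607 and 0.12. Cyp4f14 was at 10.36, 10.42 and 10.42 in WT and at 9.65, 10.21 and 9.37 in Abcb11-/- mice (-0.66, adjusted p = 0.0944, 0.00646 without Abcb11-/- replicate 2 and 0.166 to 0.244 with any other array left out).

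The Cyp2j genes, whose enzymes epoxidise arachidonic acid, were divided. Cyp2j6 was at 8.19, 8.26 and 8.20 in WT and at 8.84, 8.95 and 8.81 in Abcb11-/- mice. It rose 1.57-fold (log2 difference 0.65, SE 0.08, adjusted p = 0.00541), and its second probe set differed by 0.42. Cyp2j9, which was dim, was at 4.77, 4.91 and 4.81 in WT and at 4.32, 3.63 and 4.02 in Abcb11-/- mice. It fell 1.79-fold (log2 difference -0.84, SE 0.17, adjusted p = 0.0253), with an adjusted p of 0.0752 to 0.107 without any WT array or Abcb11-/- replicate 3. Cyp2j5 differed by 0.04. Among single-gene subfamilies, Cyp2r1, a vitamin D hydroxylase, differed by -0.09 (95% confidence interval -0.31 to 0.13), Cyp2f2 by 0.17 and Cyp4v3 by -0.08. Cyp2g1, best known from olfactory tissue, was at 6.89, 7.60 and 8.11 in WT and at 6.69, 7.13 and 5.99 in Abcb11-/- mice, which overlapped (-0.93, adjusted p = 0.187). Cyp2a5, a coumarin hydroxylase, was at 12.96, 12.90 and 12.90 in WT and at 12.75, 12.53 and 12.22 in Abcb11-/- mice (-0.42, adjusted p = 0.119, 0.0367 without Abcb11-/- replicate 1 and 0.169 to 0.268 with any other array left out).

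**Figure D2:**
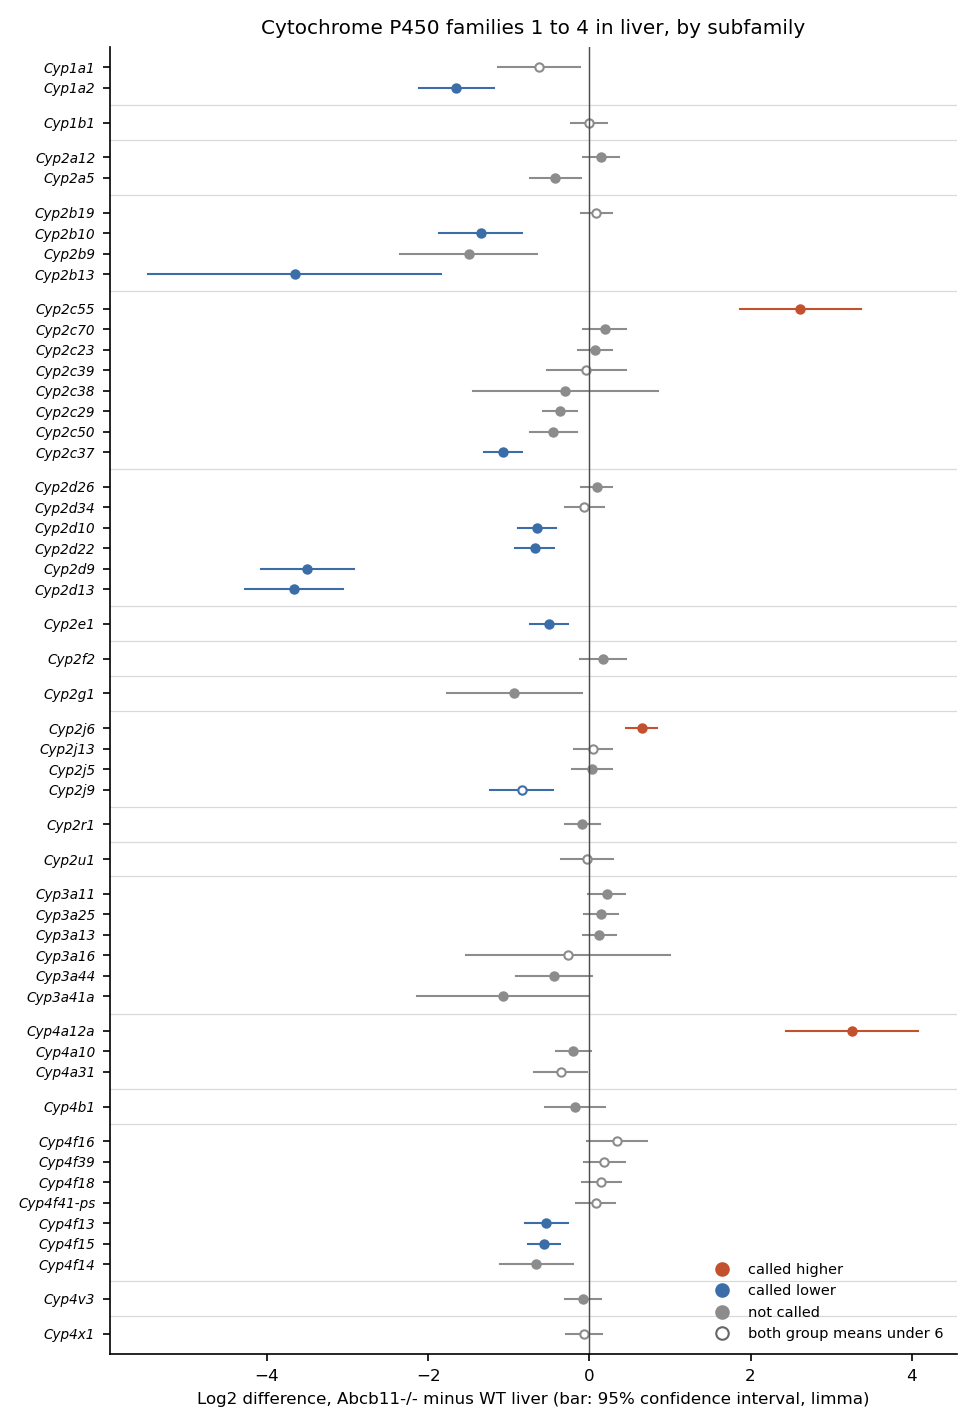
Log2 difference between Abcb11-/- and WT liver for all 51 P450 genes, grouped by subfamily, with the 95% confidence interval from limma (red, called higher; blue, called lower; grey, not called; open points, both group means under 6). Cyp2b and Cyp2d reach furthest to the left, and Cyp4a12a (3.26) and Cyp2c55 (2.62) furthest to the right.

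The falls were spread over the genome: 4 of the 6 Cyp2d genes on chromosome 15, 3 of 10 members on chromosome 7 (Cyp2b and Cyp2e), 2 of 7 on chromosome 17 (Cyp4f), 1 of 8 on chromosome 19 (Cyp2c), 1 of 9 on chromosome 4 (Cyp2j) and 1 of 2 on chromosome 9 (Cyp1a), with none among the 6 Cyp3a genes of chromosome 5. Genes of a subfamily on the same chromosome did not all move alike. Of the Cyp2c genes Cyp2c55 rose and Cyp2c37 fell, and of the Cyp2j genes of chromosome 4 Cyp2j6 rose and Cyp2j9 fell. A pair of upstream windows is shown for members that moved in opposite directions while both holding TATAAA (capitals). They are the 250 bases before the start of Cyp2c55, chr19:39006769-39007018 on the + strand, and of Cyp1a2, chr9:57683656-57683905 on the - strand (RefSeq, GRCm38.p6).
Cyp2c55: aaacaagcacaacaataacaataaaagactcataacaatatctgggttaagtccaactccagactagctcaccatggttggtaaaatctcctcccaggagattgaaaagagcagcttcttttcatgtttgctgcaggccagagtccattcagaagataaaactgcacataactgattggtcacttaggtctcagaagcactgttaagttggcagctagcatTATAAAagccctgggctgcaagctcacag
Cyp1a2: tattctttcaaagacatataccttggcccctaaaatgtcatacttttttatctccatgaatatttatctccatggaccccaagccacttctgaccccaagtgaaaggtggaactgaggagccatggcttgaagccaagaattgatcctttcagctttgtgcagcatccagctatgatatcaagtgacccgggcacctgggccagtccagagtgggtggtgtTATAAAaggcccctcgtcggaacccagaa
Windows were matched for 40 of the 51 members, including 2 that rose and 10 that fell. TATAAA was found on either strand in 17 of the 40 (42.5%), against 12.4% of all 32851 RefSeq promoter windows of that length. For this and the other motifs, a member counted if any of its windows held the motif. The share over all promoters is per window, with 32851 windows for 27025 genes, so the 2 shares are not strictly alike. Of the members that moved it was in 1 that rose and 4 that fell. The nuclear receptor motif AGGTCA was in 11 of 40 (27.5%, against 14%), of which Cyp2b13 alone was called in liver. The AHR core motif GCGTG was in 9 (22.5%, against 28.2%), and AGTTCA, another nuclear receptor motif, in 6 (15%, against 11.8%). TTCNNNGAA, the STAT5 motif, was in 2 (5.0%, against 7.02%). AGGTCA and AGTTCA differ at the third letter, so a site matches only 1 of them, and each match is a description of letters.

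Members were also grouped by what is known to regulate them. Of 6 measured genes induced through CAR and PXR, 1 rose (Cyp2c55) and 2 fell (Cyp2b10 and Cyp2c37), with a median of -0.40. Of 3 AHR-induced genes 1 fell (Cyp1a2), and neither of 2 PPAR alpha targets passed the test. One of 5 female-predominant genes fell (Cyp2b13), while the differences of the other 4 were -0.26 to -1.50 and the median was -1.07. The 2 male-predominant genes went opposite ways, Cyp4a12a up and Cyp2d9 down. Outside the P450 genes, Sult3a1, a female-predominant sulfotransferase, fell (log2 difference -6.10, adjusted p = 0.000804), alone among 4 such genes. Of 6 other male-predominant genes, Slco1a1 (-6.43, adjusted p = 7.4e-05) and Hsd3b5 (-2.69, adjusted p = 0.0253) fell and C6 (1.00, adjusted p = 0.0115) rose.

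Receptors that control these genes also differed. Nr1i2, which encodes PXR, rose (8.71 ± 0.22 against 7.67 ± 0.17, SD, n = 3, limma adjusted p = 0.00613). Ppara fell (9.33 ± 0.05 against 10.77 ± 0.08, adjusted p = 0.000398), as did Nr1h4, which encodes the bile acid receptor FXR (log2 difference -0.85, adjusted p = 0.0108), Ahr (-0.56, adjusted p = 0.0197) and Rxra, the shared partner receptor (-0.65, adjusted p = 0.0305). Nr1i3, which encodes CAR, differed by -0.82 (adjusted p = 0.061), Arnt by 0.40 (adjusted p = 0.0565) and Hnf4a by 0.10 (adjusted p = 0.703). Among 10 other targets of PXR and CAR, 4 rose and 2 fell. Abcb1a, a drug efflux pump (2.69), and Gstm3, a glutathione transferase (1.61), were the largest rises, and Abcc2, a canalicular conjugate pump (-0.72), and Slco1a4, an uptake carrier (-0.44), were the falls. Of 10 other PPAR alpha targets, Pdk4 (3.00) rose and Vnn1 (-1.32) and Cpt1a (-0.59) fell. Nqo1 (0.82) rose among 4 other AHR targets. None of 4 measured electron donors of P450s was called, the largest difference being -0.47 for Cyb5b (adjusted p = 0.164), and Por was not analysed here. In haem metabolism, Uros (0.66) rose and Blvrb (-0.66) fell of 10 genes.

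Several of the P450 genes that fell are pericentral, and pericentral markers that are no P450 differed too. Of 6, Slc1a2 (-2.34, adjusted p = 0.0401), Lgr5 (-1.94, adjusted p = 0.00749) and Tbx3 (-1.42, adjusted p = 0.00521) fell. The list averaged 7.22 to 7.74 on WT and 5.89 to 6.83 on Abcb11-/- arrays. Of 7 periportal markers, Hal (0.51) and Hsd17b13 (0.79) rose, and the list averaged 10.77 to 10.83 in WT and 10.83 to 10.98 in Abcb11-/- mice. No hepatocyte marker of 13 was called. Markers of other cells moved as well: 3 of 6 neutrophil genes rose, S100a8 by 2.84, and the list averaged 3.29 to 3.74 in WT and 4.27 to 5.41 in Abcb11-/- mice. Of 5 bile duct genes, Epcam (0.67) and Sox9 (1.15) rose, with list means of 3.15 to 3.34 and 3.55 to 3.85. None of 8 macrophage genes was called. The part of these cell markers in the P450 differences was not tested, and in whole tissue fewer cells of a type and less RNA per cell cannot be told apart.

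P450 values scattered more between Abcb11-/- mice than between WT mice. Over the 34 members with a mean of at least 6, the median SD was 0.16 in Abcb11-/- and 0.07 in WT liver. The SD was larger in Abcb11-/- liver for 27 of the 34 (79.4%), and for 64.4% of all genes at that level. Cyp2b13, Cyp2c38 and Cyp3a41a had an SD over 1 among Abcb11-/- mice, and no member did among WT mice. Replicate 2 had the highest value of the 3 Abcb11-/- mice in 28 of the 34 members, whereas replicates 1 and 3 were lowest in 15 and 17. Among WT mice, replicate 1 was highest in 18 of the 34. No such count over all genes is given, and the members are not independent of each other. Without Abcb11-/- replicate 2, 16 members were called lower, and 3.63% of all genes, against 12 and 2.91% with all arrays. With WT replicates 1, 2 and 3 left out in turn, the numbers called lower were 7, 6 and 7, where 1.13%, 1.04% and 1.2% of all genes were, and 3 were called higher each time. Calls of Cyp2d13, Cyp2d9, Cyp1a2, Cyp2c37, Cyp4f15, Cyp2j6, Cyp2c55 and Cyp4a12a held in every limma alternative that could be run for them.

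In the lung, few of these genes gave a clear signal. Of the 51 members, 9 reached a log2 value of 6 on at least 1 of the 6 arrays and 35 stayed below 4 on all of them. Cyp2f2, the naphthalene-activating enzyme of club cells, lay between 9.75 and 11.28. Cyp4b1, an airway enzyme that activates furans, was at 6.66 to 8.98, and Cyp4v3, a fatty acid hydroxylase, at 4.61 to 7.49. Cyp2e1 lay between 5.10 and 7.25, Cyp1b1 between 6.10 and 7.25 and Cyp2d22 between 4.78 and 6.06. Cyp2c70, Cyp2d26 and Cyp3a11 reached 6 on a single array, that of the Abcb11-/- mother at E17.5.

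**Figure D3:**
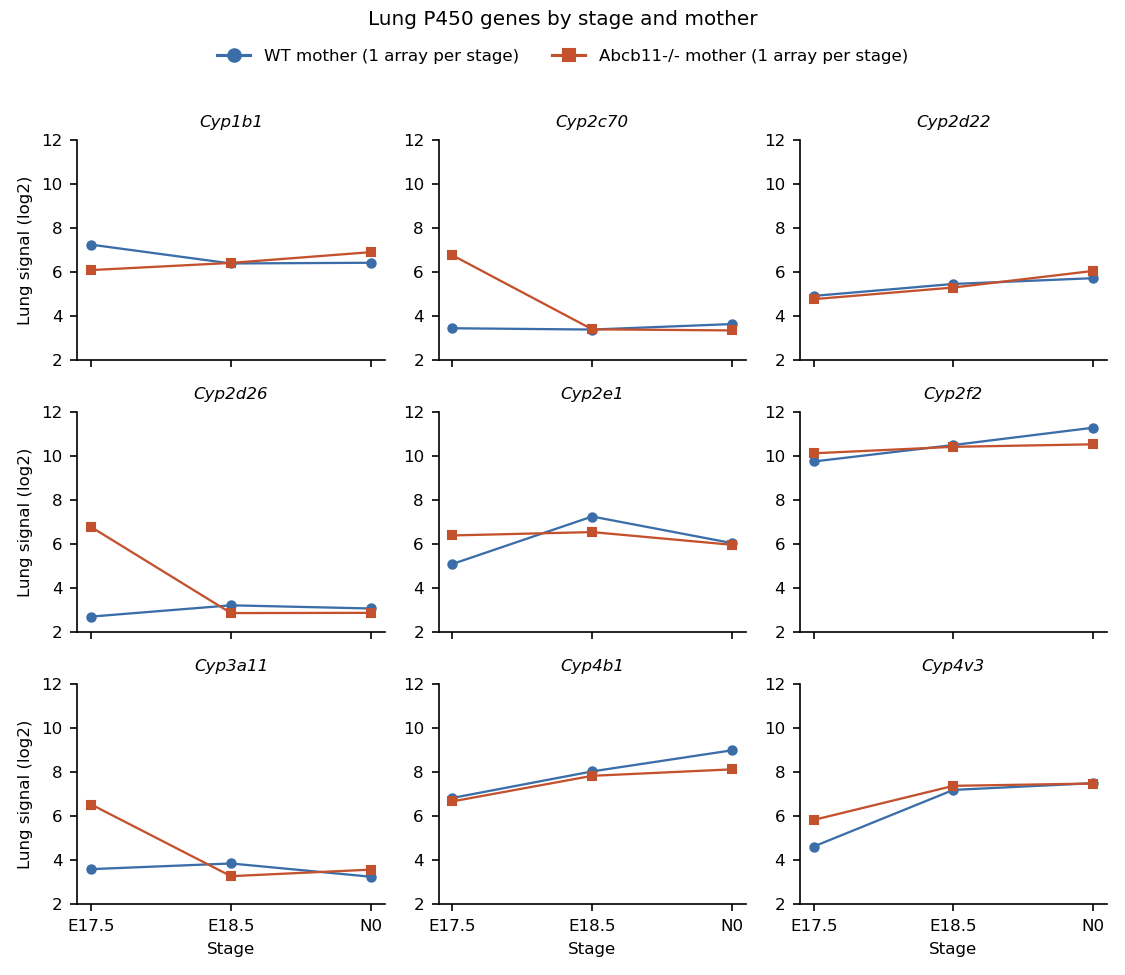
Log2 signal of the 9 P450 genes that reached 6 on a lung array, by stage, for offspring of WT mothers (blue circles) and of Abcb11-/- mothers (red squares), 1 array per point. Cyp4b1, Cyp2f2 and Cyp4v3 climb toward N0 in the WT line, and Cyp2c70, Cyp2d26 and Cyp3a11 are high only on the array from the Abcb11-/- mother at E17.5.

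Stage differences were tested over the 6 arrays with mother in the model, which left 2 residual degrees of freedom. From E17.5 to E18.5, no member was called, against 9 genes higher (0.0526%) and 1 lower (0.00585%) over all genes. At an unadjusted p under 0.05, 5 members (9.8%) and 12.8% of all genes differed. Cyp4v3 went from 4.61 (WT mother) and 5.82 (Abcb11-/- mother) to 7.18 and 7.37. Both E18.5 arrays were above both E17.5 arrays, with a log2 difference of 2.06 (SE 0.30, limma adjusted p = 0.105). Cyp4b1 went from 6.82 and 6.66 to 8.02 and 7.82, a difference of 1.18 (SE 0.21, adjusted p = 0.128). Without the E17.5 array that carried hepatocyte genes, E17.5 had 1 array and no spread of its own, so only differences are given. They were 2.62 for Cyp4v3, 1.37 for Cyp4b1 and 2.00 for Cyp2e1 (1.15 with all arrays). With all 6 arrays and a trended and robust prior, limma called Cyp4v3 (adjusted p = 0.0234) and Cyp4b1 (adjusted p = 0.0287). No number of all genes is given for that prior, so these calls are not read as a result about the members.

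From E18.5 to N0, no gene of any kind was called, while 4 members (7.84%) and 12.3% of all genes had an unadjusted p under 0.05. Without the array that carried hepatocyte genes, 24 genes were called higher and 11 lower, no member among them. At E18.5 Cyp2b10 was at 3.49 (WT mother) and 3.52 (Abcb11-/- mother), and by N0 it had reached 4.67 and 4.60. Its difference of 1.13 (SE 0.13) had a limma adjusted p of 0.0945, and 0.0498 with a trended and robust prior. Another Cyp2b10 probe set went from 3.67 and 3.4 to 4.67 and 3.54, so that it did not show the rise with the Abcb11-/- mother. The third went from 3.28 and 3.16 to 3.75 and 3.35, a smaller rise with both mothers. Cyp4f18, a leukotriene hydroxylase of neutrophils, went from 3.75 and 3.89 to 4.74 and 4.12 (0.62, adjusted p = 0.407). These genes were dim throughout.

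No member was called between the mothers over the 3 stages, nor was any other gene (limma, 0.00%). At an unadjusted p under 0.05 there was 1 member, Cyp2a12 (1.96% of the members), and 5.07% of all genes. Without the E17.5 array that carried hepatocyte genes, which leaves E18.5 and N0, no gene was called, and Cyp2a12 (0.56 with all arrays, 0.28 without) no longer had an unadjusted p under 0.05. Those that then did were Cyp2r1 and Cyp4b1, 3.92% of the members, against 6.44% of all genes. The fitted difference, Abcb11-/- mother minus WT mother, was -0.15 for Cyp2f2 (95% confidence interval -0.69 to 0.38) and -0.41 for Cyp4b1 (-0.83 to 0.01). It was 0.46 for Cyp4v3 (-0.15 to 1.06). Without that array these differences were -0.42, -0.53 and 0.08, so that the value of Cyp4v3 rested on E17.5, where it was 1.21 higher with the Abcb11-/- mother. Of 8 receptor genes, Hnf4a, a hepatocyte factor, was at 2.96 with the WT and 4.86 with the Abcb11-/- mother at E17.5 (log2 difference 1.89), and it differed by -0.53 at E18.5 and 0.14 at N0. Ahr, the brightest of the 8 in lung, differed by -0.09, -0.02 and -0.17 at the 3 stages. Nr1i2 and Nr1i3 were at 3.32 or lower on every lung array.

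Single stages have 1 array per mother, so the differences that follow have no replicate check. At N0, of 6 members whose brighter array reached 6, 2 were lower by 1.5-fold or more with the Abcb11-/- mother and none higher, where 3.15% of all such genes were lower and 4.39% higher. Cyp4b1 was at 8.98 with the WT and 8.11 with the Abcb11-/- mother (log2 difference -0.86), and Cyp2f2 at 11.28 and 10.53 (-0.75). Both had continued upward from E18.5 with the WT mother, by 0.96 and 0.78, and by 0.29 and 0.12 with the Abcb11-/- mother. Club cell markers, which share a cell with Cyp2f2, averaged 8.49 with the WT and 8.76 with the Abcb11-/- mother at N0. Of those 7 markers, Scgb3a1 (6.99 and 7.98) and Cldn10 (7.86 and 8.75) were at least 1.5-fold higher with the Abcb11-/- mother and none was lower by as much. The brightest markers differed little, with Scgb3a2 at 12.76 and 12.78, Scgb1a1 at 12.70 and 12.52 and Cbr2 at 11.81 and 11.66. Ciliated cell markers averaged 5.84 and 5.81.

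At E18.5, 1 of 5 members was at least 1.5-fold apart, Cyp2e1, at 7.25 with the WT and 6.54 with the Abcb11-/- mother (-0.71), where 0.734% of all such genes were lower and 1.24% higher. Cyp2f2 (10.50 and 10.41), Cyp4b1 (8.02 and 7.82), Cyp4v3 (7.18 and 7.37) and Cyp1b1 (6.40 and 6.42) were all within 0.20 of each other.

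At E17.5, 4 of 7 members were at least 1.5-fold higher with the Abcb11-/- mother (3.47% of all such genes) and 1 was lower (3.8%). At that stage the 4 reached 6 only on the array of the Abcb11-/- mother, so the brightness minimum admitted them through their high value. Their number is a description and not a result about the members. Cyp2d26 was at 2.71 with the WT and 6.77 with the Abcb11-/- mother (log2 difference 4.06). Cyp2c70 was at 3.46 and 6.77 (3.31), and Cyp3a11 at 3.59 and 6.52 (2.93). In WT liver at 1.5 months these 3 genes averaged 12.67, 12.41 and 13.06, and fetal liver was not measured. On the same lung array 12 of 13 hepatocyte markers were at least 1.5-fold higher, with a median difference of 4.92, among them Fgb (6.33) and Fga (5.56). At E18.5 and N0 that median was 0.05 and 0.24. Cyp2e1, at 5.10 and 6.39, was the other member higher at E17.5, and Cyp1b1, at 7.25 and 6.10 (-1.15), was the member that was lower. The other probe sets of Cyp1b1 were at 3.6 or lower at that stage.

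**Figure D4:**
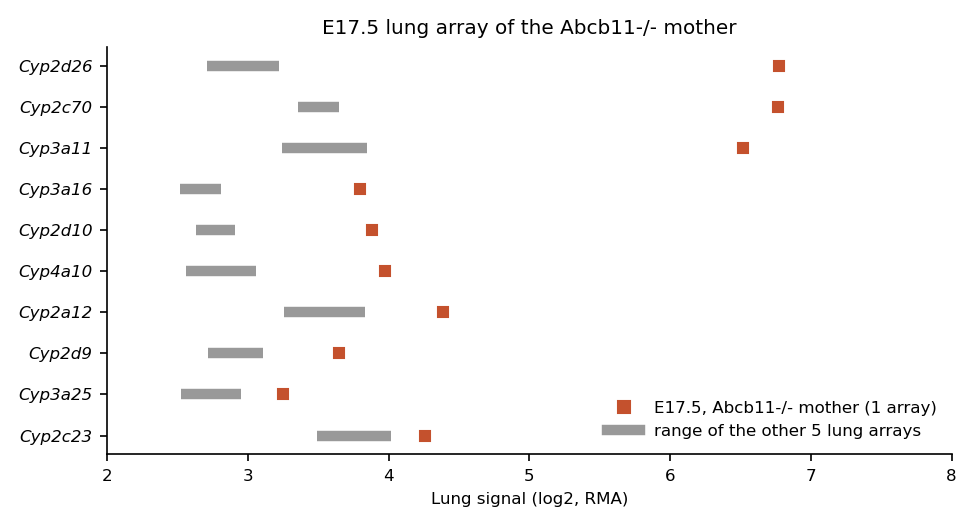
Log2 signal of the 10 P450 genes that stood furthest above the other lung arrays on the array from the Abcb11-/- mother at E17.5 (red squares, 1 array), with the range of the other 5 lung arrays (grey bars). Cyp2d26, Cyp2c70 and Cyp3a11 lie 2.68 to 3.55 above the highest of the other 5.

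Besides the 3 above, a few dim members were at least 1.5-fold above every other lung array on that array. They were Cyp3a16, a form known from fetal liver (3.80, others up to 2.81), Cyp2d10 (3.88, others up to 2.91) and Cyp4a10 (3.97, others up to 3.05). Some genes with high values in adult liver were not raised there: Cyp2c37, at 12.22 in WT liver, was at 3.01 on that array and up to 2.98 on the others, and Cyp3a41a was at 2.92 and up to 2.93. Fetal liver was not measured, so the adult values do not show which of these genes fetal hepatocytes would carry. Whether the hepatocyte transcripts on that array account for the higher P450 values was not tested.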

How the data were processed

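The arrays, Affymetrix HT MG-430 PM plates, were hybridised with biotin-labelled copies of total RNA. The authors summarised the scanned signals by robust multiarray averaging and deposited log2 values; the submitters' processing notes name Partek 6.5. No call of presence or absence came with them, so a dim gene has no stated limit of detection, and precision rests on how many arrays a group had. Of 45037 probe sets, 28898 had 1 gene in the platform table used here, 551 had several and 15588 none, and 28689 were matched to a current symbol through their gene number (RefSeq, GRCm38.p6). Probe sets listing more than 1 gene named no gene here, and 5 members were read from probe sets that may detect related transcripts (Cyp2a5, Cyp2b10, Cyp2c23, Cyp4a10 and Cyp4v3).

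Groups were taken from the labels. Genotypes in liver were compared under R 4.3.3 by limma (version 3.58.1, a linear model with genotype as the only term and moderated errors), and the lung arrays with stage and mother as terms, each over 17097 genes with Benjamini-Hochberg adjustment and a threshold of 0.05. A lung difference at a single stage was described where it was at least 1.5-fold and the brighter array reached 6. No array column was identical to another. The scripts were tested on simulated data. The replicate numbers of the labels did not pair the liver samples.

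The members and gene lists were chosen with earlier results of these data known. Members were named where they were among the 12 largest called changes each way in liver, had the largest change of their subfamily, were among the 12 widest in lung that reached 7, or were among the 5 largest differences each way at a stage; up to 4 genes of each other list and all receptors were named. Other members were described to account for each subfamily. Alternatives were the mean of a gene's probe sets, the probe set brightest over all 12 arrays, a minimum mean of 6, quantile normalization, median centring, a trended and robust prior, a replicate block, each array or stage left out, the methods' t-test, and for single stages other brightness and fold minimums. Leaving out the array from the Abcb11-/- mother at E17.5 was added after the data were seen.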

Additional observations from a re-analysis of the deposited data

Results flagged for a closer look

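Cyp2e1 differed in opposite directions between the mothers at successive lung stages. It was higher with the Abcb11-/- mother at E17.5 (5.10 with the WT and 6.39 with the Abcb11-/- mother, log2 difference 1.2956) and lower at E18.5 (7.25 and 6.54, log2 difference -0.7075). At N0 it was at 6.05 and 5.97. Over E18.5 and N0 alone the fitted difference was -0.39. No test was made of whether the stages differ, since each value comes from 1 array. The array on which Cyp2e1 was higher also carried hepatocyte genes (mean 9.59, against 5.20 with the WT mother), whose part in this value was not tested.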

How the results depend on the processing

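In liver, the number of P450 genes called lower was 12 to 13 with averaged probe sets, the probe set brightest over all arrays, a minimum mean of 6, quantile normalization, median centring or a trended and robust prior, and 3 were called higher in each. With the replicate block, 3 were higher and 9 lower (429 and 242 of all genes), losing Cyp2b13, Cyp2e1 and Cyp2j9. The numbers do not pair these samples, as same-numbered arrays had correlations of deviations of -0.166, -0.148 and -0.238. With each array left out, 6 to 16 members were lower and 3 higher each time, and 177 to 621 of all genes were lower and 315 to 888 higher. The methods' t-test gave 3 members higher and 16 lower at its unadjusted threshold (1685 and 1444 of all genes), and after Benjamini-Hochberg adjustment 0 and 0 (26 and 23). In lung, E18.5 against E17.5 gave 2 members higher with a trended and robust prior, and N0 against E18.5 gave 1 with that prior, against 0. No count is given for E18.5 against E17.5 without the array from the Abcb11-/- mother, which leaves 1 array at E17.5. At E17.5, 10 members were at least 1.5-fold higher and 3 lower with no brightness minimum, 0 were higher when the brighter array had to reach 7, and 0 were lower with averaged probe sets. With no minimum most members compared were dim, as 35 of the 51 stayed below 4 on every lung array. At E18.5, 2 were lower with no brightness minimum and 0 at 2-fold, and at N0, 0 were lower at 2-fold. Where no number for all genes stands beside a count, the count shows only how the setting moved it. It is not read as a result about the members. The causes were not tested. Of values for single genes under the alternatives, 505 kept their direction and side of the threshold, 41 lost the threshold, 7 gained it and 27 changed sign, all of them of genes that were not called.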
